A study of Homo sapiens with 22 samples.

Results

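The labelled RNA of 9 genes for factors of nonsense-mediated mRNA decay (UPF1, UPF2, UPF3A, UPF3B, SMG1, SMG5, SMG6, SMG8 and SMG9) was followed in HEK293T cells, an embryonic kidney line, with and without knockdown of ZNF598. Each gene was read from 1 of its transcript rows, the protein-coding row with the highest mean count over the libraries of 0 to 10 h, and 9 of 9 genes had such a row, of 10731 genes with a tested protein-coding row in the series. In BRIC-Seq, cells are given bromouridine (BrU), the BrU is washed out, and the RNA that was made before the washout is pulled down and sequenced after a chase. Here the cells were labelled with 150 µM BrU for 24 h and harvested at the washout (0 h) or after 2, 4, 6, 10 and 24 h of chase. The control cells carried a control hairpin (shControl) and the knockdown cells hairpins against ZNF598 (shZNF598), and both were otherwise the same line in the same medium. The comparison of the hairpins asks whether the loss of ZNF598 alters how fast mRNAs are lost in human cells. There were 2 libraries for each hairpin at each of the 5 times from 0 to 10 h and 1 library for each hairpin at 24 h, 22 in all. The labels do not say whether the 2 libraries of a group came from separate cultures, so p-values measure the spread between libraries, which may be technical.

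Nonsense-mediated decay (NMD) removes mRNAs on which translation ends too early. The helicase UPF1 is recruited to ribosomes that terminate far from the poly(A) tail or ahead of an exon junction complex. UPF2 and the paralogs UPF3A and UPF3B link UPF1 to that complex, which splicing leaves upstream of exon junctions. The kinase SMG1, held in a complex with its regulators SMG8 and SMG9, phosphorylates UPF1. Phosphorylated UPF1 then binds SMG6, the endonuclease that cuts the mRNA near the stop codon, and SMG5, which brings in deadenylation and decapping. Several NMD factor mRNAs are known to be NMD targets themselves. ZNF598, the ubiquitin ligase lowered here, recognises collided ribosomes and belongs to a separate quality-control pathway.

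The total counts per library lay between 52352359 and 96963584 at 0 to 10 h and were 21220829 and 40157613 at 24 h. Isoforms of a gene share reads, each of which adds to every transcript it touches, so a total is larger than the reads behind it. Levels are given in CPM, a count scaled by its library's size, after TMM scaling, which sets the bulk of rows to the same level in every library. A level or slope therefore says how a transcript fared relative to the bulk of labelled RNA, not how many molecules were left, and a half-life is not given. Being bulk libraries, they also cannot tell a lower level in all cells from loss in some of them. ZNF598 itself stood at 4.05 to 8.55 CPM in the shControl libraries of 0 to 10 h and at 0.419 to 1.07 CPM in the shZNF598 libraries. The ranges did not overlap, and the knockdown left 12.1% of the control level (log2 change -3.05 ± 0.087 SE, edgeR adjusted p = 1.17e-18). Of the markers fixed for HEK293T, VIM lay between 113 and 163 CPM and NEFM between 0.642 and 2.29 CPM, while PAX2 and LHX1 stayed at or below 0.091 and 0.425 CPM. Markers of 6 other cell types (PTPRC, CD3E, HBB, ALB, COL1A2 and PECAM1) were at or below 0.0908 CPM. At 24 h ZNF598 stood at 4.97 CPM in shControl and 2.44 CPM in shZNF598, nearer to each other than at the earlier times. The pair of shControl libraries at 0 h differed most, with a chi-square per degree of freedom of 27.3 between them against 2.26 to 16.5 in the other 9 pairs. For the 9 genes, differences between the hairpins at 0 h are therefore also given with single libraries left out, for some genes as ranges. Percentages of the 0 h level in shControl use the mean of that pair and were not recomputed in this way.

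In the labelled RNA at 0 h, the SMG5 transcript was the most abundant per length and the UPF3A transcript the least. On a scale of CPM per kilobase of transcript, averaged over the 4 libraries of 0 h, SMG5 stood at 18.1 ± 2.41 (SD, n = 4) and UPF3A at 0.744 ± 0.0861. Between them came UPF1 at 7.84 ± 0.319, SMG8 at 7.11 ± 0.769, SMG1 at 3.28 ± 0.803, SMG6 at 2.87 ± 0.151, UPF3B at 2.65 ± 0.194, UPF2 at 2.40 ± 0.368 and SMG9 at 1.49 ± 0.218. The ranges of UPF1 and SMG8 overlapped, and so did each neighbouring pair from SMG1 down to UPF2, so the order within those stretches was not set. SMG5, SMG9 and UPF3A were each separated from their neighbours in all 4 libraries. SMG1 has near-identical copies, and only reads that aligned to 1 locus were kept. Its level per length, and with it its place in the order, is therefore uncertain.

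The decay slope of a transcript is the change of its log2 level per hour from 0 to 10 h. A slope of 0 means that it kept pace with the level that TMM scaling holds equal between libraries. The median slope over all 79513 transcript rows was -0.018 in shControl and -0.014 in shZNF598, so 0 is not the rate of the median row. In shControl, 7 of the 9 genes had a slope that differed from 0 at an adjusted p under 0.05 in edgeR's quasi-likelihood test, where 77.9% of all 10731 gene rows did. The slopes of 6 genes were negative (52.5% of gene rows were called negative) and that of SMG1 was positive (25.4% were called positive). In shZNF598, 6 genes passed, 5 with a negative slope and again SMG1 with a positive one, against 74.6% of gene rows (49.3% called negative, 25.3% positive). These shares are near those of all genes, so passing the test does not set the factors apart. The median slope of the 9 genes was -0.060 per hour in shControl and -0.046 in shZNF598, beside -0.057 and -0.049 over all gene rows.

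**Figure D1:**
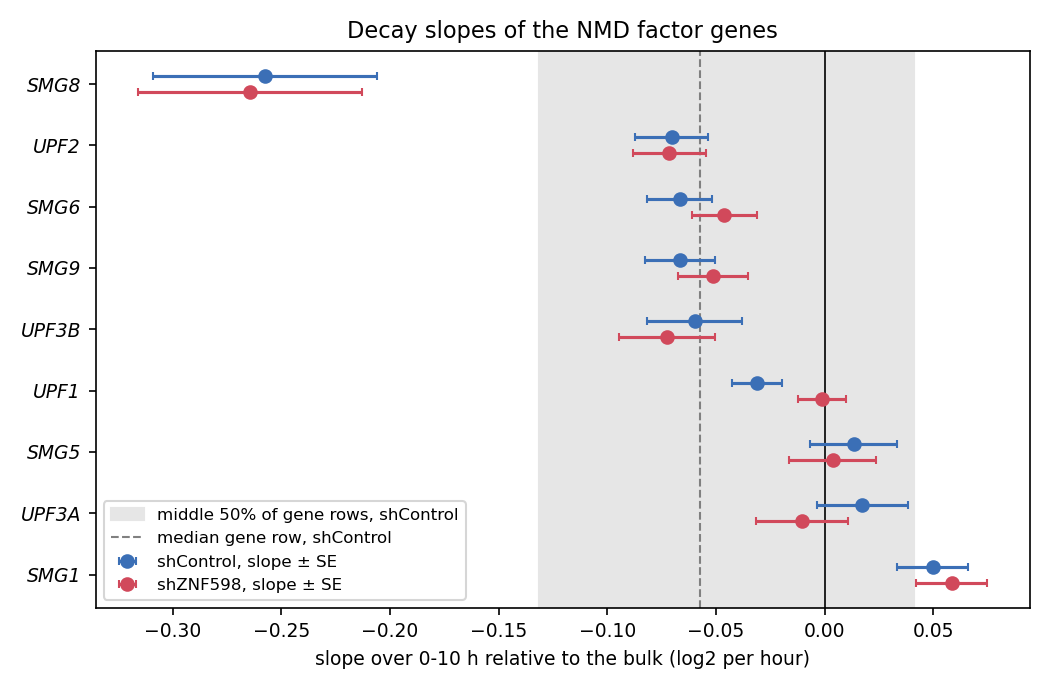
Slope of each gene from 0 to 10 h relative to the bulk (horizontal axis, log2 per hour) in shControl (blue) and shZNF598 (red), with bars of 1 SE; the grey band and dashed line give the middle 50% and the median of all gene rows in shControl. SMG8 stands at -0.26 in both arms, far left of the others, and SMG1 is the only gene right of the band.

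SMG8 was the fastest to be lost. SMG8, a regulator of the SMG1 kinase, is encoded at chr17:59209400-59215239 on the plus strand (GRCh38), and its row (ENST00000543872.6) has 5 exons and a 3′ UTR of 237 nt, where the median over gene rows was 1454 nt. In shControl the 2 libraries gave 20.8 and 26.0 CPM at 0 h, 15.9 and 18.8 at 2 h, 5.24 and 5.40 at 4 h, 3.92 and 3.22 at 6 h, and 4.83 and 4.64 at 10 h. In shZNF598 they gave 26.7 and 25.4 CPM at 0 h, 17.6 and 17.8 at 2 h, 5.10 and 5.60 at 4 h, 4.20 and 3.82 at 6 h, and 5.36 and 4.36 at 10 h. In each arm the libraries from 4 h on lay below all libraries of 0 and 2 h, and the 2 arms lay over each other. The mean level at 4 h was 22.7% of that at 0 h in shControl and 20.5% in shZNF598, and at 6 h it was 15.2% and 15.4%. From 4 to 10 h the libraries stayed between 3.22 and 5.60 CPM, so a straight line describes the course poorly. The row shares 422 nt, 12.1% of its exonic bases, with the gene ENSG00000265303 on the same strand, which had a row at a mean of 1.59 CPM. Its part in the late level of SMG8 was not tested. The fitted slope was -0.26 ± 0.052 per hour (SE, adjusted p = 0.000142) in shControl and -0.26 ± 0.051 (adjusted p = 0.000116) in shZNF598, and 2.11% and 1.45% of gene rows had a lower slope in these arms. From 0 to 4 h, SMG8 was the only factor whose slope passed the test, in either arm. The share of all gene rows that passed in that window is not given here.

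The 3′ UTR of SMG8 held 1 copy of ATTTA, the core of AU-rich elements, 172 nt after the stop codon, and 30.4% of its bases were G or C. The window around it is shown because SMG8 had the lowest slope. It is written 5′ to 3′ from GENCODE release 44 with the ATTTA in capitals. For comparison follow the first such windows of UPF1 and SMG1, 517 and 841 nt after their stop codons.
SMG8: atattgttgatATTTAttgtaaacgtg
UPF1: cgagggccttcATTTAaagaaaataag
SMG1: taattccggttATTTAagtcatttctg
The pentamer was found on the transcript strand in 74.97% of the 10665 gene rows with a 3′ UTR, at a median of 1.78 per kilobase. SMG8 had 4.22 per kilobase, SMG1 2.76 (13 copies in 4709 nt) and UPF1 1.75, while the 3′ UTR of SMG5, of 1363 nt, held none. The longer TATTTAT, which contains the pentamer, was present in SMG8, UPF1 and UPF3A and in 37.4% of gene rows. A match of this kind is a description of the sequence.

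UPF2, SMG6, SMG9 and UPF3B formed a group with slopes near the median gene. UPF2 bridges UPF1 and UPF3, and its row (ENST00000397053.6, 22 exons, chr10:11920023-12043170, minus strand) had slopes of -0.070 ± 0.017 in shControl and -0.071 ± 0.017 in shZNF598. The slopes of SMG6 (ENST00000263073.11, chr17:2059843-2303785, minus strand) were -0.067 ± 0.015 and -0.046 ± 0.015. Those of SMG9 (ENST00000270066.11, chr19:43727983-43754962, minus strand) were -0.066 ± 0.016 and -0.051 ± 0.016. UPF3B (ENST00000345865.6, chrX:119834026-119852998, minus strand) gave -0.060 ± 0.022 and -0.072 ± 0.022. The 4 genes passed the test in both arms, with adjusted p from 0.000473 to 0.0183 in shControl and from 0.000774 to 0.00942 in shZNF598, and none of the neighbours among them differed by more than 2 SE. For UPF3B the call in shControl was lost without either library of shControl at 10 h (adjusted p = 0.0966 and 0.112), and in shZNF598 without replicate 2 at 10 h (0.0845). In shControl it was also lost with no filter on low counts (0.0663) and with 1 row per gene (0.0560). For SMG6 and SMG9 the call in shZNF598 was lost without replicate 1 at 10 h (0.113 and 0.0507). That of SMG6 was also lost with no filter (0.0501) and that of SMG9 without the libraries of 0 h (0.0798). Over 0 to 4 h the shControl slopes of UPF2 (-0.056, edgeR adjusted p = 0.327) and SMG9 (-0.057, 0.212) were not called. Without replicate 1 of all groups the shControl slope of UPF2 was -0.045. Without replicate 2 of all groups that of SMG9 was -0.041. SMG6 shares 1780 nt, 29.8% of its exonic bases, with HIC1 on the opposite strand, and whether the counting used strand is not given in the sources used here. No row of HIC1 reached a mean of 1 CPM.

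Within 0 to 10 h, the mean levels of SMG6 and UPF3B were lowest at 10 h in both arms. The mean level of SMG6, whose libraries ranged from 11.3 to 19.1 CPM, was 107% of the 0 h level at 4 h in shControl and 66.3% at 10 h, and in shZNF598 it was 113% and 76.2%. UPF3B, between 3.17 and 7.24 CPM over all 20 libraries, was at 94.9% in shControl and 79.8% in shZNF598 at 6 h and at 61.9% and 60.7% at 10 h. At 10 h, UPF2 was left at 64.2% of its 0 h level in shControl and 68.1% in shZNF598, and SMG9 at 65.8% and 67.7%.

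SMG1 and SMG5 held their level against the bulk or exceeded it. SMG1, the kinase that phosphorylates UPF1, has the longest row of the 9 genes (ENST00000446231.6, 63 exons, 16062 nt, chr16:18804860-18926408, minus strand). In shControl its libraries gave 68.7 and 37.3 CPM at 0 h, 58.4 and 60.9 at 2 h, 63.6 and 53.4 at 4 h, 70.1 and 60.7 at 6 h, and 76.9 and 75.4 at 10 h. In shZNF598 they gave 50.5 and 54.9 CPM at 0 h, 59.2 and 58.4 at 2 h, 65.7 and 53.2 at 4 h, 74.6 and 65.0 at 6 h, and 84.5 and 73.3 at 10 h. The libraries of 10 h lay above those of 0 h in both arms, and the spread was widest in shControl at 0 h. The slope was 0.050 ± 0.016 in shControl (adjusted p = 0.00959) and 0.058 ± 0.016 in shZNF598 (adjusted p = 0.00341). Without replicate 2 of shControl at 0 h the former was 0.030 (adjusted p = 0.0521). SMG1 has near-identical copies, and 10 rows of 7 SMG1 pseudogenes were tested, at mean levels of 1.11 to 30.4 CPM against 63.2 CPM for SMG1. Only reads that aligned to 1 locus were kept, so the level and slope of SMG1 are uncertain where the copies are identical. The positive slope of SMG1 also depended on the scaling: with rows of at least 5 CPM alone it was 0.023 (adjusted p = 0.211) in shControl and 0.035 (0.0668) in shZNF598.

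SMG5, which binds phosphorylated UPF1, showed a course with a peak. The shControl libraries of SMG5 (ENST00000361813.5, 22 exons, chr1:156249224-156282825, minus strand) gave 67.2 and 92.7 CPM at 0 h, 82.8 in both at 2 h, 100 and 101 at 4 h, 104 and 111 at 6 h, and 82.6 and 82.9 at 10 h. Those of shZNF598 gave 87.4 and 83.6 CPM at 0 h, 90.7 and 78.1 at 2 h, 106 and 101 at 4 h, 110 and 113 at 6 h, and 74.5 and 87.8 at 10 h. All libraries of 4 and 6 h lay above all others in both arms. Over 0 to 10 h the slope did not pass the test (0.013 ± 0.020, adjusted p = 0.554, and 0.0037 ± 0.020, adjusted p = 0.875), and it was negative in both arms with rows of at least 5 CPM alone (-0.013 and -0.020). Over 0 to 6 h it was 0.076 (adjusted p = 0.00208) in shControl and 0.071 (0.00378) in shZNF598.

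UPF1 and UPF3A had slopes nearer to 0 than the median gene row, which stood at -0.057 in shControl and -0.049 in shZNF598. UPF1, the central helicase (ENST00000262803.9, 24 exons, chr19:18831959-18868230, plus strand), gave 39.4 and 43.0 CPM at 0 h in shControl, 37.8 and 37.4 at 2 h, 43.2 and 39.3 at 4 h, 35.1 and 34.8 at 6 h, and 35.0 and 31.2 at 10 h. In shZNF598 it gave 42.8 and 42.5 CPM at 0 h, 41.6 and 36.1 at 2 h, 44.5 and 41.0 at 4 h, 40.9 and 39.8 at 6 h, and 36.5 and 46.2 at 10 h. At 6 h and at 10 h both shZNF598 libraries lay above both shControl libraries, and at 0, 2 and 4 h the arms overlapped. The slope was -0.031 ± 0.011 in shControl (adjusted p = 0.0183) and -0.0012 ± 0.011 in shZNF598 (adjusted p = 0.930). The call in shControl was lost under 4 other ways of scaling, filtering or testing (adjusted p 0.0911 to 0.136) and without replicate 2 of 0 h (0.0513) or of 10 h (0.114). The difference between the arms, 0.030 ± 0.016 per hour, did not pass the test (unadjusted p = 0.0749, adjusted p = 0.970), and 2 SE around it reached from -0.0020 to 0.062. UPF3A (ENST00000375299.8, 10 exons, chr13:114281601-114305817, plus strand) had slopes of 0.017 ± 0.021 and -0.011 ± 0.021, neither past the threshold, on 69 to 259 counts per library.

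For none of the 9 genes did the difference in slope between shControl and shZNF598 pass the test. The share of all gene rows called in this comparison was 0.14%, and no factor reached an unadjusted p under 0.05 (over all 79513 transcript rows, 4397 did). The DESeq2 Wald test also called 0 of 9. The differences, shZNF598 minus shControl, lay between -0.028 per hour for UPF3A and 0.030 for UPF1, with a median of -0.0011 beside 0.0038 over all gene rows. The bounds at 2 SE were tightest for UPF1 and widest for SMG8, from -0.15 to 0.13 per hour, so a change of SMG8 decay within that range was not detectable here.

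**Figure D2:**
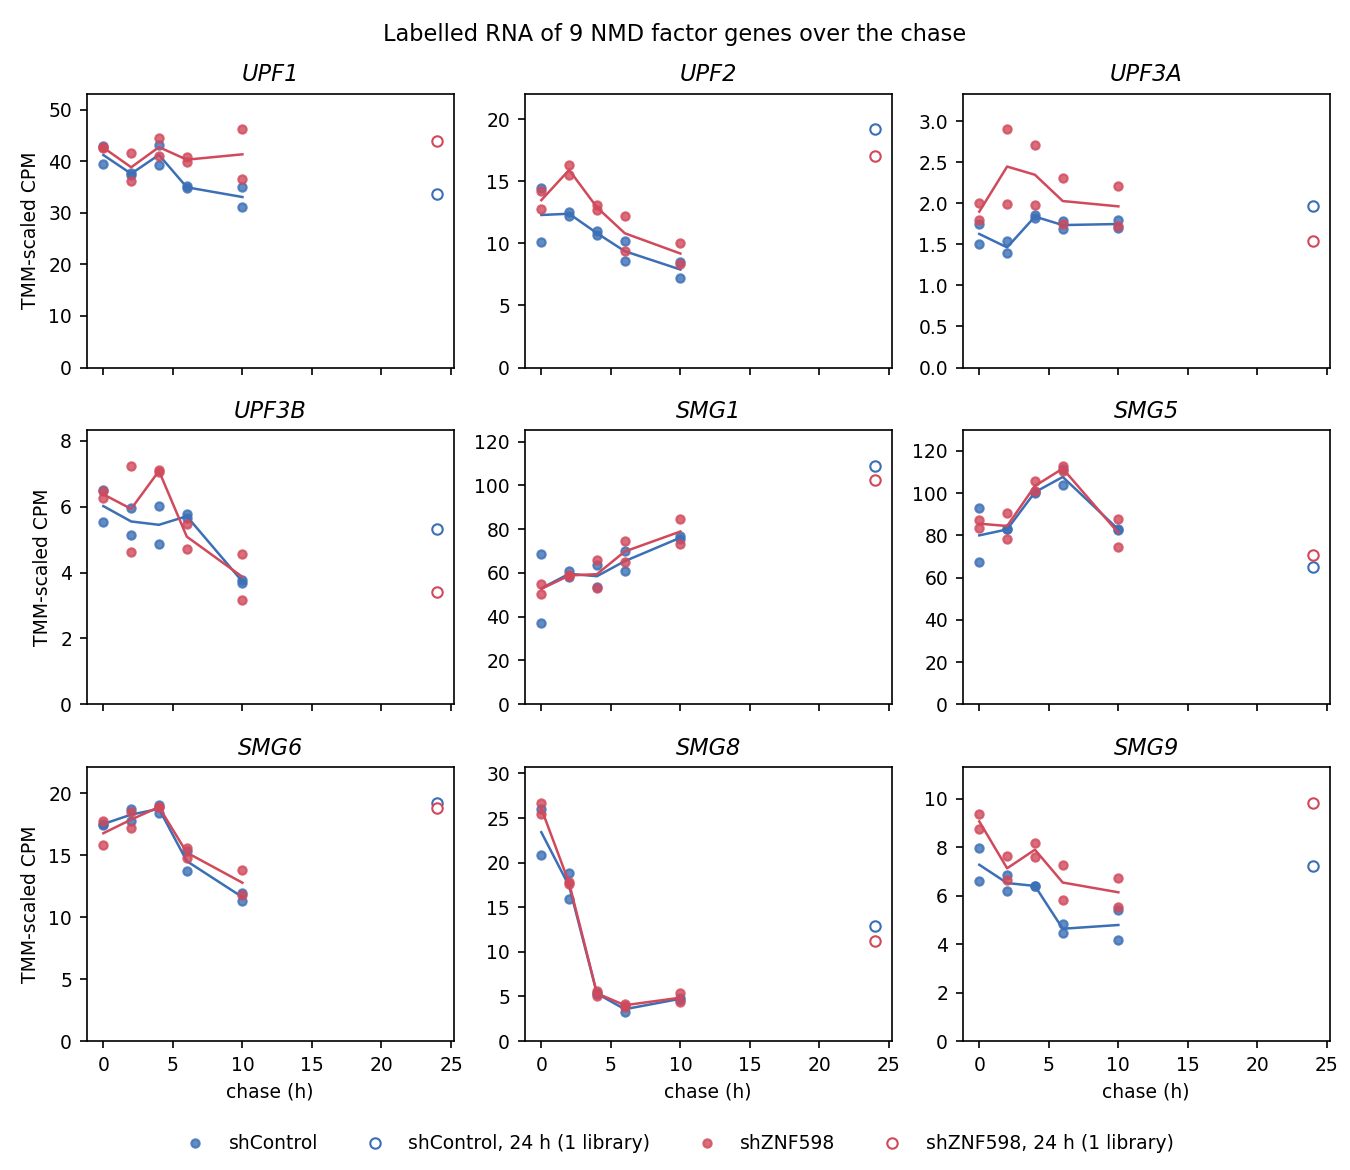
TMM-scaled CPM of the 9 genes (vertical axes, from 0) against hours of chase; filled points are libraries of shControl (blue) and shZNF598 (red), lines join the means of 2 libraries, and open points are the single libraries of 24 h. SMG8 drops from 20.8 to 26.7 CPM at 0 h to 3.22 to 4.20 CPM at 6 h in both arms, SMG5 peaks at 6 h, and the shZNF598 points of SMG9 lie above those of shControl at most times.

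In level, 3 of the 9 factors were higher in the knockdown when the 5 times from 0 to 10 h were averaged: UPF3A, SMG9 and UPF2. None was lower, while 15.6% of gene rows were called higher and 12.1% lower (27.7% in all). The log2 change was positive in 9 of 9 genes and in 56.8% of gene rows, and its median was 0.095 over the factors and 0.025 over gene rows. The 9 genes are read from the same libraries and are not independent of each other.

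UPF3A, the weaker activator among the UPF3 paralogs, showed the highest change. In shControl it gave 1.75 and 1.51 CPM at 0 h, 1.54 and 1.39 at 2 h, 1.85 and 1.83 at 4 h, 1.78 and 1.69 at 6 h, and 1.69 and 1.804 at 10 h. In shZNF598 it gave 2.00 and 1.797 CPM at 0 h, 1.99 and 2.90 at 2 h, 2.71 and 1.98 at 4 h, 1.74 and 2.31 at 6 h, and 2.21 and 1.72 at 10 h. Both knockdown libraries were above both control libraries at 0, 2 and 4 h and overlapped them at 6 and 10 h. The mean log2 change was 0.35 ± 0.090 (adjusted p = 0.00670), and 0.29 to 0.40 when any 1 of the 20 libraries was left out. Its paralog UPF3B gave 0.095 ± 0.078 (adjusted p = 0.413).

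SMG9, the partner of SMG8 on the SMG1 kinase, was higher by 0.32 ± 0.064 on the log2 scale (adjusted p = 0.000918). Its shControl libraries gave 6.60 and 7.95 CPM at 0 h, 6.84 and 6.20 at 2 h, 6.40 in both at 4 h, 4.83 and 4.44 at 6 h, and 5.40 and 4.18 at 10 h. Its shZNF598 libraries gave 9.36 and 8.77 CPM at 0 h, 7.62 and 6.64 at 2 h, 8.19 and 7.61 at 4 h, 5.81 and 7.28 at 6 h, and 5.54 and 6.73 at 10 h. The arms were separated at 4 of the 5 times and overlapped at 2 h. SMG8 and SMG1, the other members of that complex, gave 0.078 ± 0.060 and 0.029 ± 0.076 and were not called.

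UPF2 was higher by 0.23 ± 0.067 (adjusted p = 0.0135). It gave 14.4 and 10.1 CPM in shControl at 0 h, 12.2 and 12.5 at 2 h, 10.7 and 10.97 at 4 h, 10.2 and 8.56 at 6 h, and 7.24 and 8.53 at 10 h. In shZNF598 it gave 14.2 and 12.7 CPM at 0 h, 15.5 and 16.3 at 2 h, 12.7 and 13.1 at 4 h, 12.2 and 9.38 at 6 h, and 10.0 and 8.30 at 10 h. The arms were separated at 2 and 4 h and overlapped at the other times. UPF1 missed the threshold at 0.13 ± 0.049 (adjusted p = 0.0514). It passed in 8 of 28 alternatives in edgeR or DESeq2, and the adjusted p over all of them ranged from 0.0130 to 0.131. Among the 8 was the fit without the libraries of 0 h, an alternative chosen after seeing the data (0.15, adjusted p = 0.0481). The 2 effectors gave 0.038 ± 0.052 (SMG5) and 0.023 ± 0.048 (SMG6), with 2 SE bounds of -0.067 to 0.14 and -0.073 to 0.12.

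At 0 h alone, before the chase, none of the 9 genes differed between the hairpins, where 0.69% of gene rows were called. SMG9 was the only one under 0.05 before adjustment, at 0.32 ± 0.14 (edgeR adjusted p = 0.444). Without shControl replicate 1 the value of SMG9 was 0.19, and without replicate 2 it was 0.46. In the same order the value of SMG8 (0.15 ± 0.12) was 0.0030 and 0.33, and that of UPF3A (0.22 ± 0.20) was 0.33 and 0.12. DESeq2 also called 0 of 9. The changes ranged from -0.062 ± 0.11 for SMG6 to 0.32 for SMG9, with SE of 0.11 to 0.20. The change was smaller in size than its SE for UPF1, UPF2, UPF3B, SMG1, SMG5 and SMG6. It exceeded its SE for UPF3A, SMG8 and SMG9. SMG1 gave -0.0069 ± 0.17, and this value rested on the control pair: it was 0.50 without shControl replicate 1 and -0.38 without replicate 2, neither past the threshold.

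**Figure D3:**
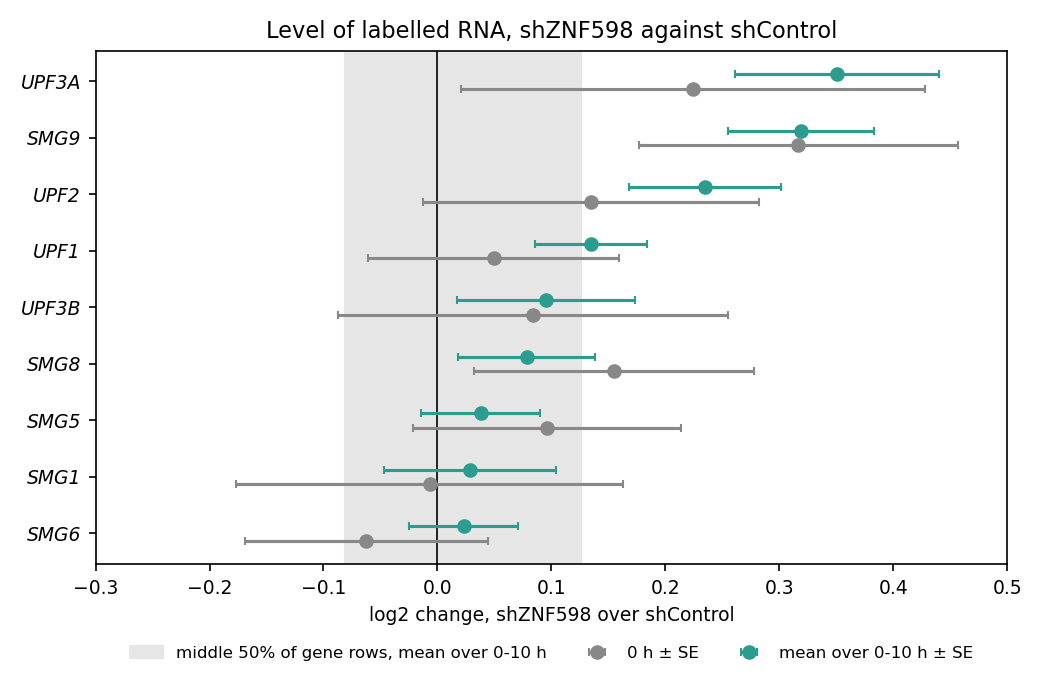
Log2 change of each gene, shZNF598 over shControl (horizontal axis), at 0 h (grey) and as the mean over 0 to 10 h (green), with bars of 1 SE; the grey band is the middle 50% of all gene rows for the mean level. The means of UPF3A, SMG9 and UPF2 (0.23 to 0.35) lie right of the band, that of UPF1 (0.13) just past its edge, and those of the other 5 genes inside it.

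Some transcripts of these genes are annotated as NMD targets, and their values are given beside those of the main rows. Rows of a gene share reads, so likeness between them is partly built in. The files held 92 rows of the 9 genes, of which 70 passed the filter of a mean of 1 CPM: 37 protein coding, 17 with a retained intron, 13 spliced without a defined coding sequence, and 3 annotated as subject to NMD. The 3 NMD rows belong to SMG1, SMG8 and SMG9, the members of the kinase complex. In each of them the stop codon lies more than 50 nt upstream of the last exon junction, whereas in the main rows of SMG1, SMG8 and SMG9 it lies in the last exon. The stop codons are shown because their place is what separates these isoforms. Each line gives the mRNA 5′ to 3′ from GENCODE release 44 (GRCh38), with the stop codon in capitals.
SMG1 NMD row ENST00000568038.1: ggccatggtcatTAGaacttttttcta
SMG1 main row ENST00000446231.6: acagcctgggtgTGAatggcaagacag
SMG8 NMD row ENST00000580798.1: aaatcaggtagcTAAaatttgttcagc
SMG8 main row ENST00000543872.6: gcagtaacacaaTAAgtgttttccagc
SMG9 NMD row ENST00000597598.1: cacatcctgcatTGAgcctcttcctgg
SMG9 main row ENST00000270066.11: cgcctgctggccTGAggccaaggagag
The last junction comes 157 nt after the stop codon in the SMG1 NMD row (chr16:18866687-18872550), 358 nt after it in that of SMG8 (chr17:59211722-59212856) and 568 nt after it in that of SMG9 (chr19:43734460-43747734). In UPF1 the main row itself ends its coding sequence 3 nt before the last junction, within the 50 nt that the rule allows.

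The slopes of the 3 NMD rows had the sign of the main row of their gene. The SMG1 NMD row had slopes of 0.080 ± 0.019 in shControl and 0.097 ± 0.019 in shZNF598, beside 0.050 and 0.058 for the main row. The SMG8 NMD row gave -0.29 ± 0.055 and -0.32 ± 0.057 beside -0.26 in both arms. For SMG9 the NMD row gave -0.082 ± 0.021 and -0.047 ± 0.020 beside -0.066 and -0.051. A read counts in every transcript it overlaps, and 0% of the bases of the SMG1 and SMG8 NMD rows lie in no other transcript of their gene, so every read of theirs can count in another row too. The rows of a gene were not tested against each other. For the SMG9 NMD row that share is 40.3%. Its mean level was higher in the knockdown by 0.27 ± 0.093 (adjusted p = 0.0400), beside 0.32 for the main row.

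**Figure D4:**
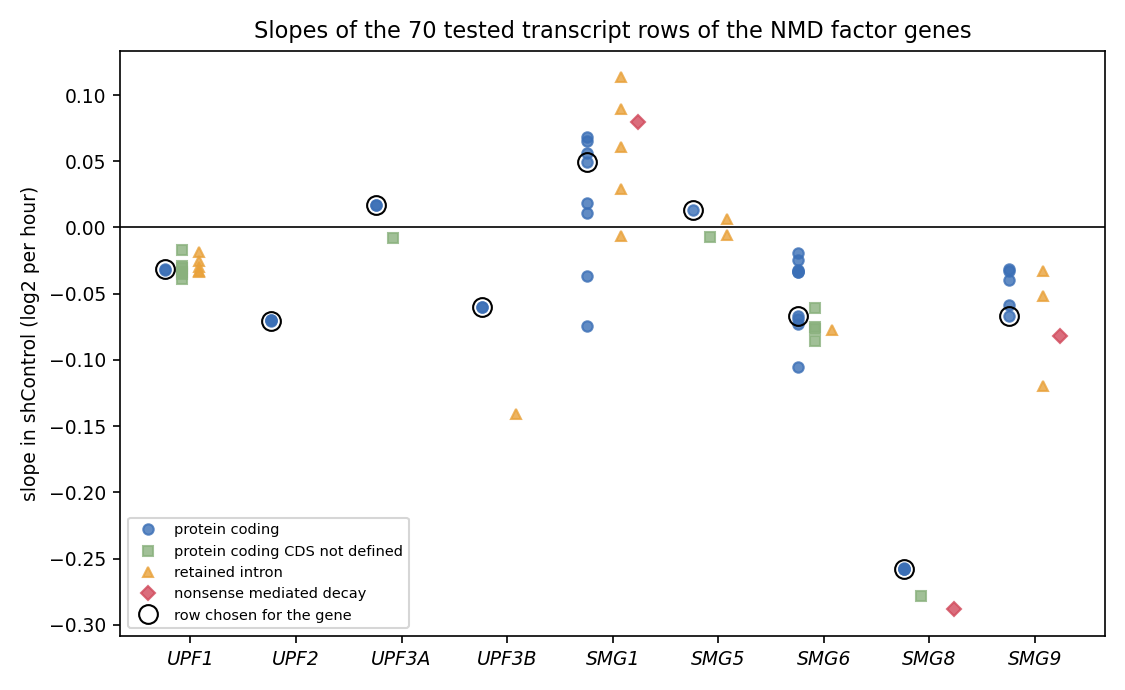
Slope in shControl (vertical axis, log2 per hour) of the 70 tested rows of the 9 genes, by annotated type; circled points are the rows chosen for each gene. The rows of SMG8 all lie between -0.29 and -0.26, and the 3 NMD rows (diamonds) lie near other rows of their gene, with which they share reads.

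Over all 70 rows, 0 were called for a difference in slope or in level at 0 h, with 0 and 1 at an unadjusted p under 0.05 (0.116% and 0.407% of all transcript rows were called). In mean level 15 rows were higher and 0 lower (22.4% of all transcript rows were called, 12.3% higher and 10.1% lower). They were 6 rows of SMG9 and 3 each of UPF1, UPF2 and UPF3A. The 3 UPF1 rows have no defined coding sequence, with changes of 0.20 to 0.22, and the UPF1 main row was not called. Rows of a gene share reads and are not replicates of each other. The slope difference was positive in 13 of 13 tested rows of UPF1, 15 of 15 of SMG6, 7 of 14 of SMG1, 5 of 9 of SMG9, 1 of 6 of SMG8, 1 of 4 of SMG5, 1 of 3 of UPF3B and 0 of 3 of both UPF2 and UPF3A, without passing the test in any, and in 56.4% of gene rows. Among the retained-intron rows, the lowest slope in shControl was that of UPF3B ENST00000478840.1 at -0.14 and the highest that of SMG1 ENST00000563448.1 at 0.11, both past the threshold.

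The courses of the 9 genes differed from each other. Over the 10 group means of 0 to 10 h, the log2 levels of SMG1 and UPF3B had a Pearson correlation of -0.84, and those of UPF1 and SMG9 of 0.86. Among 4342 genes with a row of at least 10 CPM, 3 had a correlation above 0.9 with UPF1 (HIRA at 0.95, TUBB at 0.91 and OXA1L at 0.90). For SMG8 404 genes passed that value, led by WTAP, ADNP2 and KLHL11, at 0.998, 0.996 and 0.995. The 10 points share libraries and the TMM scaling, so these values are descriptions only.

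The other genes of the pathway were described by lists. In the exon junction complex (EIF4A3, MAGOH, MAGOHB, RBM8A, CASC3 and RNPS1), 6 of 6 genes were tested and the slopes of 4 were called negative and of 1 positive in each arm, where 52.5% of gene rows were called negative and 25.4% positive in shControl and 49.3% and 25.3% in shZNF598. RNPS1, a peripheral factor of the complex, was higher in mean level by 0.15 ± 0.047 (adjusted p = 0.0199), and CASC3, one of its core proteins, was lower at -0.17 ± 0.049 (0.0143). The other 4 were not called. The termination factors ETF1 and GSPT1 had negative slopes in shControl (-0.12 and -0.092), PABPC1, the poly(A)-binding protein, a positive one (0.13), and none of these 3 differed in level. GSPT2 did not pass the filter.

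Of 7 further factors that act with the machinery, 4 had slopes called positive and 3 negative in each arm, where 25.4% of gene rows were called positive and 52.5% negative in shControl and 25.3% and 49.3% in shZNF598. NBAS, which takes part in NMD at the endoplasmic reticulum, was higher in mean level by 0.18 ± 0.044 (adjusted p = 0.00463), and RUVBL1, an AAA ATPase, was lower at -0.16 ± 0.048 (0.0205). PNRC2, DHX34, RUVBL2, NCBP1 and STAU1 were not called in level.

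Among genes well known as NMD targets, 3 of the 6 tested were higher in mean level and none lower, where 15.6% of gene rows were called higher and 12.1% lower. ATF4, a transcription factor of the integrated stress response whose mRNA carries upstream reading frames, was higher by 0.68 ± 0.045 (adjusted p = 4.19e-11). GAS5, a noncoding RNA that hosts snoRNAs, was higher by 0.43 ± 0.052 (1.50e-06), and ATF3, a stress-induced factor, by 0.26 ± 0.070 (0.00930). GAS5 was read from its highest row of any type, one annotated with a retained intron. The other genes of the list and the shares of gene rows rest on protein-coding rows. GADD45A, GADD45B and TBL2 were not called, and SLC7A11 did not pass the filter. ATF4 was also the only gene of all these lists called at 0 h (0.55 ± 0.0998, adjusted p = 0.00703). In slope, 0 genes of the 4 lists differed between the arms in edgeR's test. MAGOHB was the only one under 0.05 before adjustment (-0.044 per hour). The median slope difference of each list lay between -0.0063 and 0.00059.

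At 24 h there was 1 library for each hairpin, so the difference has no replicate check. SMG8 stood at 12.9 CPM in shControl and 11.3 CPM in shZNF598, above all its values from 4 to 10 h. SMG1 stood at 109 and 103 CPM, or 205% and 195% of the 0 h means. In the same order of shControl and shZNF598, UPF2 was at 156% and 126% of its 0 h means and SMG6 at 110% and 112%. SMG9 was at 99.3% and 108%, and UPF3B at 88.3% and 53.4%. UPF1 gave 33.6 CPM in shControl and 43.995 CPM in shZNF598. The ratio of UPF1, shZNF598 over shControl, was 1.31 with an exact 95% interval of 1.19 to 1.44, that of UPF3B was 0.641 (0.483 to 0.851) and that of SMG1 0.942 (0.891 to 0.997). These intervals cover counting error only.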

How the data were processed

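Single-end BRIC-Seq libraries of 22 samples were used. The authors called bases with CASAVA 1.8, trimmed reads with fastp, removed reads of noncoding RNA, aligned the rest with STAR 2.7.0a to hg38 with GENCODE release 32, allowing 1 mismatch and 1 locus, and used featureCounts on each transcript. What they deposited are raw counts, in files with no header. The spike-ins were not used here. The counter's strand setting is not given in the sources used here.

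Groups came from the sample labels. Of 227264 transcript identifiers, 209601 matched GENCODE release 44 (GRCh38) with their version and 13920 without it. The remaining 3743 (2.22% of the counts) were kept in every test, unnamed. The 79513 rows that averaged 1 CPM or more in the 20 libraries of 0 to 10 h entered edgeR 4.0.16 (R 4.3.3) with TMM scaling and its quasi-likelihood test, and p-values were adjusted by Benjamini-Hochberg over all 79513 rows at a threshold of 0.05. A model of group means gave levels, and a model with hairpin, hours and their product as terms gave slopes. The SE of a log2 value was taken as its size over the root of F. The scripts were tested on simulated data. The 24 h libraries entered no main test, and their ratios have exact binomial intervals. DESeq2 1.42.0, other filters, chase windows, a replicate block and leaving out libraries were alternatives.

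The 9 genes and the lists were chosen with earlier results of these data known, and support nothing by their direction. All 9 genes are named, and other isoforms are given as counts and ranges and named where annotated as NMD targets or where they lead a range. An item of the lists is not reported here.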

Additional observations from a re-analysis of the deposited data

Results flagged for a closer look

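The 24 h libraries, 1 for each hairpin, entered none of the main tests of level or slope. In them 3 of the 9 genes stood higher in shZNF598 than in shControl by more than counting error. The share of all gene rows beyond counting error in this pair is not given here, so this count does not set the factors apart. Pairs of libraries of the same group differed by a chi-square per degree of freedom of 2.26 to 27.3, which is more than counting error. The ratio of shZNF598 to shControl was 1.31 for UPF1 (exact 95% interval 1.19 to 1.44, from 1512 and 582 counts), 1.09 for SMG5 (1.01 to 1.17, from 2426 and 1126 counts) and 1.36 for SMG9 (1.11 to 1.69, from 338 and 125 counts). The intervals cover counting error and not the spread between libraries, and the ratios rest on the TMM scaling of 2 libraries with 21220829 and 40157613 counts. Lower ratios beyond counting error were those of UPF3B, 0.641 (0.483 to 0.851), and SMG1, 0.942 (0.891 to 0.997). In this pair ZNF598 itself stood at 2.44 CPM in shZNF598 and 4.97 CPM in shControl. UPF1 and SMG9 were also higher in both knockdown libraries at 6 and 10 h. SMG5 was not called in level at 0 h or over 0 to 10 h.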

How the results depend on the processing

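The counts of factors that differed between the hairpins stayed at 0 for the level at 0 h and for the slope, and at 3 to 4 for the mean level, under all alternatives run. UPF1 was the gene added at 4, under the DESeq2 Wald test, without the 0 h libraries (an alternative chosen after seeing the data), with the replicate block, and without replicate 2 of shControl at 0 h, replicate 2 of shZNF598 at 2 h, replicate 1 of shControl at 10 h or replicate 1 of shZNF598 at 10 h. With rows of at least 5 CPM, UPF3A failed the filter and UPF1 was called. The counts of slopes within an arm moved most with the window and the number of libraries. In shControl 1 gene was called over 0 to 4 h (SMG8), 4 over 0 to 6 h (UPF2, SMG5, SMG8 and SMG9) and 1 over 0 to 24 h (SMG1). In shZNF598 1 was called over 0 to 4 h (SMG8), 4 over 0 to 6 h and 2 over 0 to 24 h (UPF3B and SMG1). The shares of all gene rows called in these windows are not given here, so these counts do not set the factors apart. With other scalings, filters or rows the counts were 5 with no filter and with 1 row per gene and 6 with DESeq2 size factors, the Wald test and 5 CPM in shControl, and 5 with no filter in shZNF598. Leaving out libraries gave 3 to 7 genes in shControl and 3 to 6 in shZNF598, the lowest without replicate 2 and without replicate 1 of all groups. In those fits the model of group means has no residual degrees of freedom, and levels were not tested. Shorter windows and fits without a replicate use fewer libraries by construction, and the cause of the other changes was not tested.

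Scaling moved the slopes of the factors together, by a median of 0.012 per hour in shControl with DESeq2 size factors and of -0.026 with rows of at least 5 CPM alone, and another scaling or filter moved differences between the arms by -0.0029 to 0.0031. With a slope near 0 this turned signs without a call. The shZNF598 slope of UPF1 became 0.0083 with DESeq2 size factors, 0.0081 in the Wald test, 0.0012 with no filter, 0.0053 with 1 row per gene and 0.0024 over 0 to 24 h. With 5 CPM it was called, at -0.025. SMG5 slopes became -0.013 in shControl and -0.020 in shZNF598 with 5 CPM, -0.016 in both over 0 to 24 h, and -0.010 and -0.021 without the 0 h libraries. Over 0 to 4 h the slopes of SMG6 became 0.014 and 0.041, those of UPF3A and UPF3B in shZNF598 0.073 and 0.037, and the slope differences of UPF2, UPF3A and UPF3B 0.038, 0.038 and 0.084. Over 0 to 6 h the shZNF598 slope of UPF3A became 0.0086, and the differences of SMG8 and UPF2 0.0022 and 0.0035. Over 0 to 24 h the slopes of UPF2 became 0.018 and 0.0019, that of SMG9 in shZNF598 0.0037, and the differences of SMG1 and SMG5 -0.0023 and 0.00032. The difference of SMG8 was 0.0014 without the 0 h libraries and that of UPF2 0.0020 with 5 CPM. The level of SMG1 at 0 h became 0.021 with no filter.

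Leaving out libraries turned the sign of uncalled values only. The level at 0 h ranged from -0.38 to 0.50 for SMG1, -0.12 to 0.35 for SMG5, -0.15 to 0.019 for SMG6, -0.013 to 0.11 for UPF1, -0.098 to 0.41 for UPF2 and -0.028 to 0.20 for UPF3B. The mean level ranged from -0.046 to 0.13 for SMG1, -0.0048 to 0.088 for SMG5 and -8.8e-05 to 0.046 for SMG6. The slope difference ranged from -0.037 to 0.048 for SMG1, -0.045 to 0.023 for SMG5, -0.0015 to 0.043 for SMG6, -0.064 to 0.036 for SMG8, -0.036 to 0.067 for SMG9, -0.0028 to 0.061 for UPF1, -0.043 to 0.037 for UPF2, -0.060 to 0.0021 for UPF3A and -0.058 to 0.027 for UPF3B. The shControl slope of SMG5 ranged from -0.0042 to 0.030. The shZNF598 slope ranged from -0.015 to 0.028 for SMG5, -0.022 to 0.018 for UPF1 and -0.028 to 0.0057 for UPF3A.

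The deviations of same-numbered libraries of the 2 hairpins at a time had correlations from -0.37 to 0.48, 3 of 5 above 0.1. Over all 45 pairs of groups the correlations ranged from -0.48 to 0.70, and 18 were above 0.1. The main tests used no pairing, and whether libraries of the same number were handled together was not tested. With the replicate block, UPF1 passed in mean level (0.13, adjusted p = 0.0494), the level of SMG1 at 0 h became 0.024, and the counts of genes called were 0 at 0 h, 4 in mean level, 7 and 6 in slope and 0 in slope difference. Depth limits UPF3A most, at 69 to 259 counts per library.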
